A study of Mus musculus with 26 samples.

Results

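The genes of the proteasome were followed across 7 groups of mouse embryonic stem cell (ESC) clones. The set was defined by name: every gene of the count table whose symbol begins with Psm, a letter from a to g and a digit, and that had at least 10 counts summed over all 26 libraries. Of 50 such symbols, 49 passed, out of 24421 genes in the table. Psmb8, with 21 counts, lay just inside the minimum, and Psmb11, with 9 counts, lay just outside it. Of the 49 members, 48 passed the filter on low counts and were tested among 15238 genes, and Psmb8 was not. The name rule also takes in Psmc3ip, a meiotic recombination factor that is no proteasome subunit, and Psme2b, a paralog of Psme2.

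RNA-seq was carried out on total RNA depleted of ribosomal RNA. Cells of all groups, labelled as mouse ESC, received doxycycline (2 µg/ml) over 3 days in N2B27 medium with PD/CH, to which the growth protocol adds LIF. WT_mock cells were wild type and expressed no ectopic protein. The other 6 groups were knockout for ERR beta, a nuclear receptor and pluripotency factor whose gene is Esrrb. Of these, KO_mock expressed no ectopic protein, KO_ERRb_wt expressed wild-type ERR beta, and KO_ERRg_wt expressed wild-type ERR gamma, the related receptor encoded by Esrrg. KO_ERRb_DBDm3, KO_ERRb_DBDm6 and KO_ERRb_AF2M6 expressed ERR beta mutants deficient in binding to DNA, to the general transcription factor TFIIH and to coactivators, respectively. The design text describes expression of the receptors as inducible by doxycycline. Each group held 2 clones, with 2 libraries per clone except in KO_ERRg_wt, which had 1. The libraries of a clone were added, so n = 2 clones in every group, and p-values measure the spread between clones. The labels do not say how the clones of a group were derived, so what else set the clones of 1 group apart from those of another cannot be told apart from the receptor they expressed.

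The proteasome degrades proteins that carry ubiquitin chains. Its barrel-shaped core particle is built of outer rings of α subunits, which gate the entry, and inner rings of β subunits, of which Psmb5, Psmb6 and Psmb7 carry the chymotrypsin-like, caspase-like and trypsin-like active sites. The regulatory particle that caps the barrel has a base, whose ring of ATPases (Psmc1 to Psmc6) unfolds substrates, and a lid, which removes ubiquitin. Interferon-induced cells replace the active subunits with Psmb8, Psmb9 and Psmb10 to form the immunoproteasome, which favours peptides for antigen presentation. When proteasome function drops, the transcription factor encoded by Nfe2l1 is known to raise proteasome genes together through antioxidant response elements in their promoters. Pluripotent cells are known for high proteasome activity, which in human ESCs has been tied to the lid subunit PSMD11.

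Promoter sequences show what the members do and do not share upstream. RefSeq windows on GRCm38.p6, the 250 bases before each annotated start site, were held for 41 of the 49 members in 44 windows. The core of the antioxidant response element, TGACNNNGC, was looked for on both strands because it is the site of the factors that raise proteasome genes. It was found in 5 of the 41 genes, 12.2%, against 11.5% of all 27025 genes with a window. The ERR response element, TNAAGGTCA, was found in 1 member, 2.44% against 1.3%. That member was Psmc3ip, which is no proteasome subunit. CCAAT boxes were found in 14 members, 34.1% against 37.5%, and 5 of these were among the 7 α ring genes. Of these, Psma6 counted only through a window at chr12:55383972-55384221, upstream of the gene as counted (from 55398825). Its window at chr12:55398575-55398824 held none. A match is a description of the letters and not a bound site. Windows of 6 genes are printed, because they belong to members that the results turn on or hold the matches nearest the start site. Capitals mark the antioxidant response element core on either strand in Psmb5, Psmb6 and Psmd9, and the ERR response element in Psmc3ip. Psmb9, the member with the largest fold change, and Psmc4, the base ATPase with the largest fold change in the knockout, held neither.
Psmb5: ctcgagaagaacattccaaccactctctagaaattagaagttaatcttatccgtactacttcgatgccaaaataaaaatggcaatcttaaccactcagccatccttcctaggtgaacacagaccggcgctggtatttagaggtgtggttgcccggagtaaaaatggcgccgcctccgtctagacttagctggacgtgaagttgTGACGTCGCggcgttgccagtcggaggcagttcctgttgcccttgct
Psmb6: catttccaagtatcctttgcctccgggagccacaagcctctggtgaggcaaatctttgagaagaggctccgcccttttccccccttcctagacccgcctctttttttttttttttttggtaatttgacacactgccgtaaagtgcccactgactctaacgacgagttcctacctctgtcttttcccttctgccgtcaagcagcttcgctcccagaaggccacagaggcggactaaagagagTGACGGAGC
Psmd9: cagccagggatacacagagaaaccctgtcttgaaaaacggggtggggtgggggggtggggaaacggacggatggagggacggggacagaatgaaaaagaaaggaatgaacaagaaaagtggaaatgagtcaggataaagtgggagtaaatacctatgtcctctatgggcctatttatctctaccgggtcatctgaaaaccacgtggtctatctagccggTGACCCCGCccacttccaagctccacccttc
Psmc3ip: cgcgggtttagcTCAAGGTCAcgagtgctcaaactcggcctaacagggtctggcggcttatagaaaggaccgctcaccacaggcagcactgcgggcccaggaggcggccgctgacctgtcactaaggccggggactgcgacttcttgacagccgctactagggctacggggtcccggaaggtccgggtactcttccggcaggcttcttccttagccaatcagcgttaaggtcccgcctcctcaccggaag
Psmb9: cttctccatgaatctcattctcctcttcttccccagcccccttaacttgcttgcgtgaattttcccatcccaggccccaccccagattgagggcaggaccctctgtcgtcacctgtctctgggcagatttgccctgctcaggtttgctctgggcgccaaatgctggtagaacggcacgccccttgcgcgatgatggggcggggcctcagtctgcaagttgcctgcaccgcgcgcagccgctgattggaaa
Psmc4: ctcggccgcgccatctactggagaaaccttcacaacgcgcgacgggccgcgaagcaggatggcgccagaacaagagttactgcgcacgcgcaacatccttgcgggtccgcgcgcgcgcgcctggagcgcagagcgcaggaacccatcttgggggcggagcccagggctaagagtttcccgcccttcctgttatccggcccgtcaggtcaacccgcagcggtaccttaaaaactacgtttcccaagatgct

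The windows lie at chr14:54617996-54618245 (minus strand) for Psmb5, chr11:70525107-70525356 (plus) for Psmb6, chr5:123227940-123228189 (plus) for Psmd9, chr11:101095436-101095685 (minus) for Psmc3ip, chr17:34187331-34187580 (minus) for Psmb9 and chr7:28050093-28050342 (minus) for Psmc4. The core began 47 bases before the start site of Psmb5, 9 bases before that of Psmb6 and 31 bases before that of Psmd9. In Psmc6 and Psmd12 it lay far upstream, at 227 and 247 bases. The ERR element of Psmc3ip lay at 238 bases.

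Library totals ran from 21276790 to 30021667 counts. Levels are CPM, counts scaled to library size with TMM factors, and levels of different genes were compared as CPM per kb of exon length. Esrrb stood at 602 and 560 CPM in the WT_mock clones and at 277 and 276 CPM in the KO_mock clones, so reads still fell on the locus in the knockout. It was at 410 to 553 CPM in the clones given ERR beta or its mutants and at 465 and 477 CPM in those given ERR gamma. In the clones given ERR beta or its mutants, the counts do not separate the locus from a construct. The clones given ERR gamma are not labelled with an ERR beta construct. Esrrg was at 229 and 124 CPM in the clones given ERR gamma and at most 0.24 CPM in every other clone. The 10 ESC markers summed to 3340 to 4300 CPM in every clone, with none at 0. The 6 feeder fibroblast markers summed to 1.97 to 9.39 CPM, the 6 primitive endoderm markers to 1.57 to 10.2 CPM, the 5 leukocyte markers to 2.14 to 6.99 CPM (Lyz2 at 0 in every clone) and the 5 trophoblast markers to 27.7 to 184 CPM, most of it Tfap2c. In these bulk samples, fewer cells of a type and less RNA per cell cannot be told apart.

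Whole chromosomes stood apart between groups, and the members on them are described apart, except in the sums over particles and classes. In KO_mock against WT_mock the median log2 fold change of the 515 tested genes of chromosome 14 was −0.61. In KO_ERRb_DBDm3, KO_ERRb_DBDm6, KO_ERRb_AF2M6 and KO_ERRg_wt against KO_mock the medians were −0.53, −0.49, −0.55 and −0.53 on chromosome 8, and −0.63, −0.93, −0.96 and −0.38 on chromosome 6. Chromosome 14 carries 5 members (Psmb5, Psmc6, Psmd6, Psme1 and Psme2), chromosome 8 carries 2 (Psmb10 and Psmd7), and chromosome 6 carries none. A shift shared by a chromosome and the group's receptor cannot be told apart in members on it.

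Proteasome genes were abundant in all groups. The median tested member stood at 104.4 CPM per kb, against 6.725 CPM per kb for all tested genes. In WT_mock the structural β subunits lay closest together, from 174.1 CPM per kb (Psmb1) to 185 (Psmb4). The α subunits ran from 99.34 CPM per kb (Psma3) to 229.9 (Psma2), and the catalytic β subunits from 142.4 (Psmb5) to 277.1 (Psmb6). The base ATPases had a wider range, from 52.18 CPM per kb (Psmc2) to 156.6 (Psmc6), and the lid ran from 74.42 (Psmd11) to 145.3 (Psmd8). Core assembly chaperones (21.4 to 50.93), base assembly chaperones (8.69 to 39.99) and the germ-cell α subunit Psma8 (19.65) were below every subunit of the constitutive particle in CPM per kb. Immunoproteasome genes were low, with Psmb10 at 17.38 CPM per kb, Psmb9 at 2.232 and Psmb8 at 0.04185.

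Summed over its 14 constitutive genes, the core particle stood at 2317 and 2365 CPM per kb in the WT_mock clones and at 2477 and 2547 in the KO_mock clones, 107.3% of WT_mock. The sum reached 102.5% of WT_mock with wild-type ERR beta, 111.2% with DBDm3, 117.8% with DBDm6, 122% with AF2M6 and 110.2% with ERR gamma. All clones of the 6 knockout groups lay above both WT_mock clones, the nearest being clone 8-3 of KO_ERRb_wt at 2392. The sums were taken under 1 scaling only. With TMM computed outside chromosomes 6, 8 and 14, the median log2 difference of all genes moved by up to 0.0479. The regulatory particle, summed over 17 genes, stood at 1825 and 1956 CPM per kb in WT_mock and at 2091 and 2095 in KO_mock, 110.7%. It reached 117.8% in KO_ERRb_AF2M6 and was 104.5% to 110.5% in the other 4 groups, and clone 8-3 of KO_ERRb_wt (1942) lay between the WT_mock clones. The ratio of regulatory to core sums was 0.807 ± 0.0279 (SD, n = 2 clones) in WT_mock and 0.833 ± 0.0153 in KO_mock. It was lowest in KO_ERRb_DBDm6, at 0.7566 and 0.7580, close to KO_ERRg_wt at 0.759 and 0.7773. The clones of these groups and of KO_ERRb_AF2M6 (0.7752 and 0.7845) all lay below every clone of WT_mock, KO_mock and KO_ERRb_wt. Members on chromosomes 8 and 14 are part of these sums, Psmb5 in the core and Psmc6, Psmd6 and Psmd7 in the regulatory particle. The sums and ratios were not tested.

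**Figure D1:**
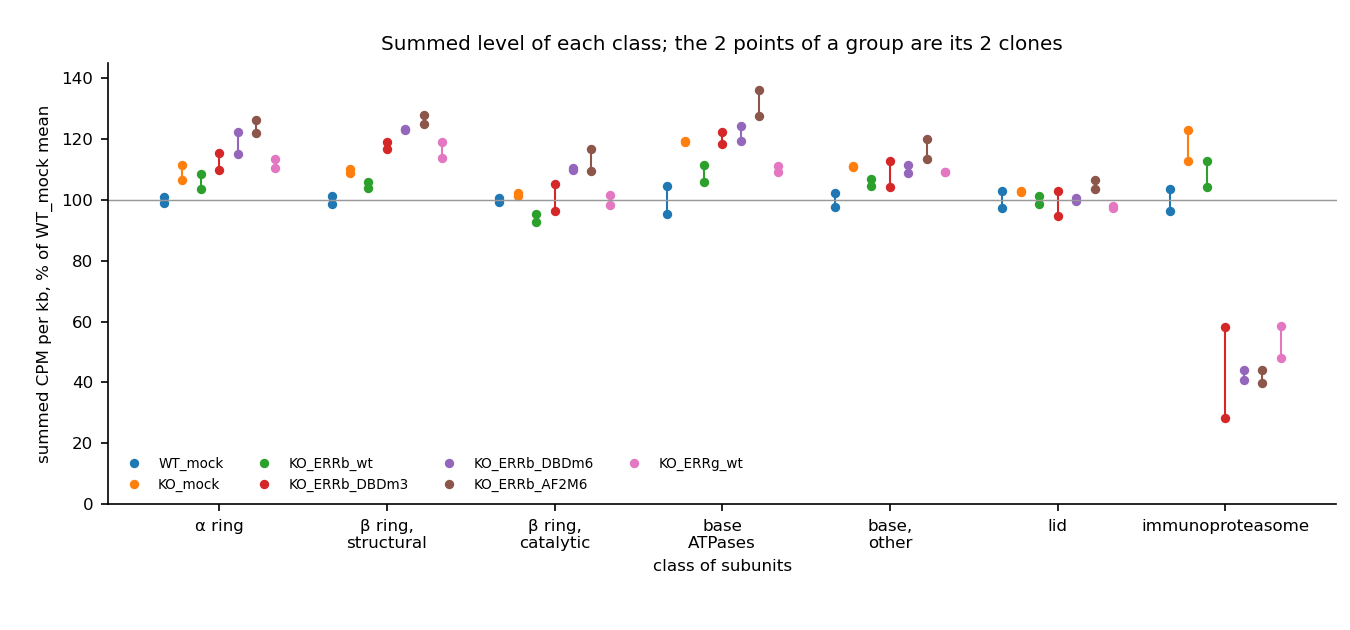
Summed CPM per kb of 7 classes of subunits (x axis) as a percentage of the WT_mock mean (y axis, from 0). Each group is a pair of points, its 2 clones, joined by a line. Base ATPases stood at 119% in KO_mock and 132% in KO_ERRb_AF2M6, and the lid stayed between 97.7% and 105% in group means. The lid sum includes Psmd6 (chromosome 14) and Psmd7 (chromosome 8). The immunoproteasome sum was 42% to 53.2% in the mutant and ERR gamma groups. It is mostly Psmb10, on chromosome 8, which held 17.38 of its 19.65 CPM per kb in WT_mock.

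Among the classes of the constitutive particle, the group means spanned the widest range for the ATPases and the narrowest for the lid. The base ATPase sum was 119% of WT_mock in KO_mock and 109% with wild-type ERR beta. It was 120%, 122% and 132% with the DBDm3, DBDm6 and AF2M6 mutants and 110% with ERR gamma. The α ring went from 106% in KO_ERRb_wt to 124% in KO_ERRb_AF2M6, and the structural β subunits from 105% to 126% in the same groups. The catalytic β subunits ran from 94% in KO_ERRb_wt to 113% in KO_ERRb_AF2M6. This sum includes Psmb5, on chromosome 14. In KO_ERRb_wt against WT_mock, Psmb5 differed by −0.682 on the log2 scale, Psmb7 by 0.00109 and Psmb6 by 0.0849. The lid stayed between 97.7% (KO_ERRg_wt) and 105% (KO_ERRb_AF2M6). Its sum includes Psmd6 (chromosome 14), below WT_mock in the means of all 6 knockout groups. It also includes Psmd7 (chromosome 8), below WT_mock in the mutant and ERR gamma groups. In KO_ERRg_wt their clones were at 124 and 127 CPM and at 104 and 105 CPM, against 150 and 176 CPM and 131 and 141 CPM in WT_mock. No lid sum was taken without them.

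**Figure D2:**
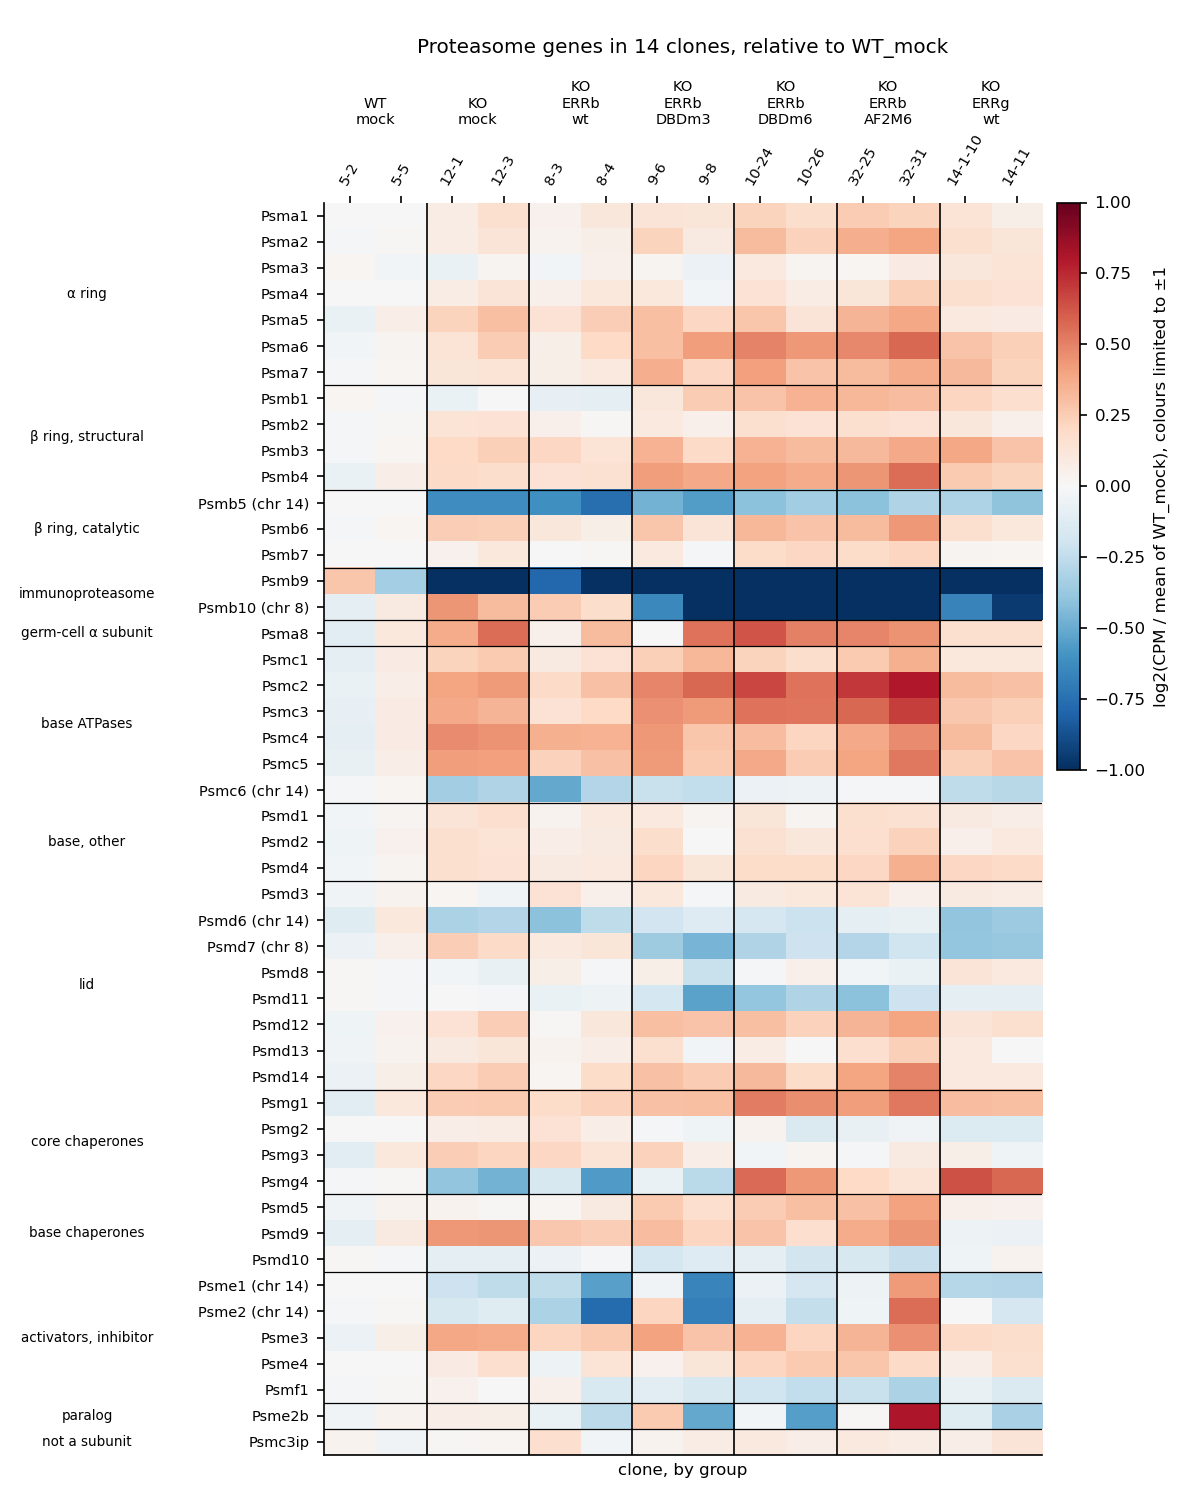
Each cell is the log2 ratio of a clone's CPM to the mean of the WT_mock clones, for the 48 tested members (vertical axis, by class) in 14 clones (horizontal axis, by group), with colours limited to ±1. The 5 base ATPases off chromosome 14 are red in every clone of the 6 knockout groups, Psmb5 and Psmb9 are blue in them, and Psmb10 is blue in the last 4 groups.

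Loss of ERR beta was examined first, in KO_mock against WT_mock. The 5 base ATPases that lie outside chromosome 14 rose together, by 0.24 to 0.46 on the log2 scale, while the catalytic subunit Psmb5 and the ATPase Psmc6, both on chromosome 14, fell, and the immunoproteasome subunit Psmb9 fell most of all members. Of 48 tested members, 16 were higher (33.3%, against 18% of all tested genes) and 5 were lower (10.4%, against 19.4%) at an adjusted p below 0.05 in edgeR's quasi-likelihood test, with Benjamini-Hochberg adjustment over all genes. The median log2 fold change was 0.13 over the members and −0.0029 over all tested genes, and 35 of 48 members lay above 0. The members' median absolute log2 fold change, 0.19, was below that of all genes, 0.32. Without clone 5-2, 12-1 or 12-3 the count fell from 21 to 10, 10 and 9, and 9 calls were kept whichever clone was left out: Psmb5, Psmb9, Psmc2, Psmc3, Psmc4, Psmc5, Psmc6, Psmd9 and Psme3.

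**Figure D3:**
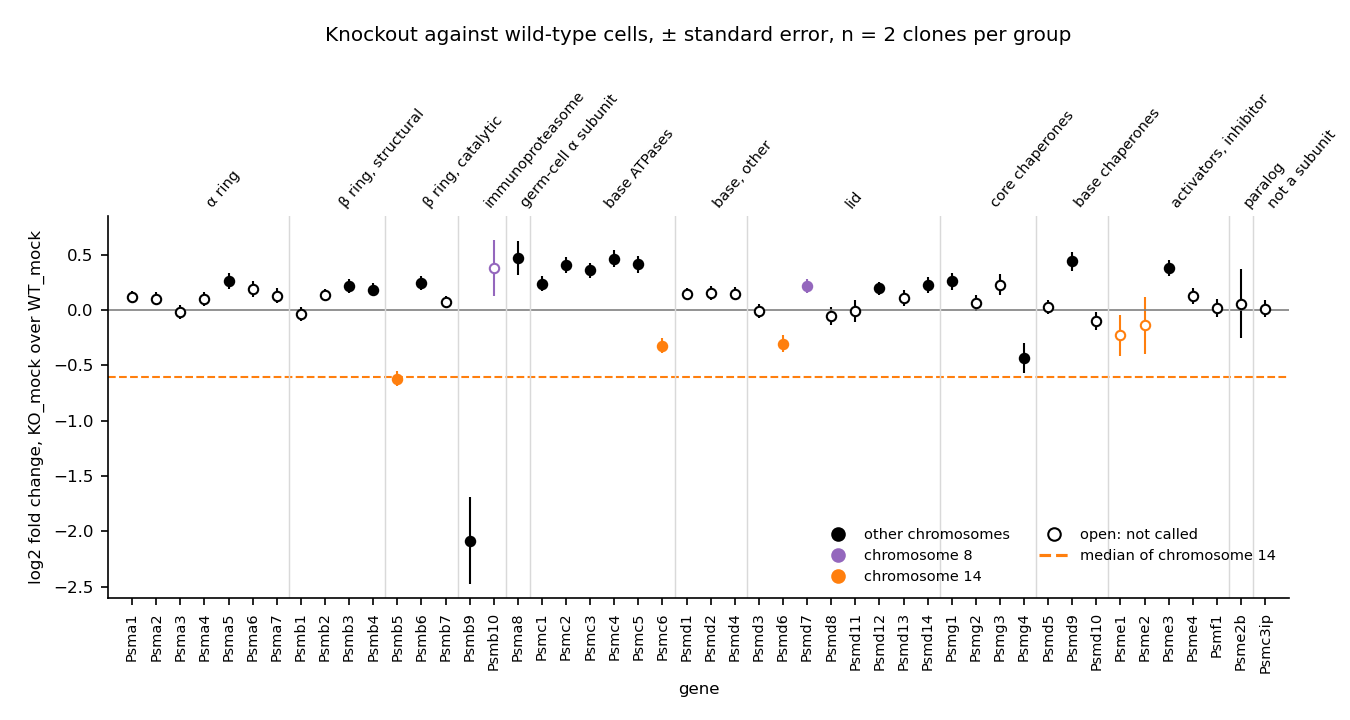
Log2 fold change of KO_mock over WT_mock (y axis) with its standard error for the 48 tested members (x axis, by class), n = 2 clones per group, filled where the adjusted p was below 0.05. The dashed line is the median of chromosome 14, at −0.61, where Psmb5 sits, and the other members of that chromosome lie above it. Psmb9, at −2.09, lies below all other members.

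Base ATPases form the ring of motors that unfolds substrates, and 5 of 6 rose and 1 fell. Psmc4 (mm10 chromosome 7, 28041702 to 28050092, minus strand) stood at 193 and 218 CPM in the WT_mock clones and at 286 and 281 CPM in the KO_mock clones. Both knockout clones were above both wild-type clones, a log2 difference of 0.46 ± 0.08 (standard error, adjusted p = 0.00136 in edgeR). Psmc2 (chromosome 5, 21785283 to 21803784, plus strand) was at 88.6 and 97.4 CPM in WT_mock and at 122 and 125 CPM in KO_mock (0.41 ± 0.07, adjusted p = 0.00174). Psmc5 (chromosome 11, 106256185 to 106263112, plus strand) was at 148 and 163 CPM and at 208 and 207 CPM (0.41 ± 0.08, adjusted p = 0.00251). Psmc3 (chromosome 2, 91054016 to 91059438, plus strand) was at 206 and 231 CPM and at 284 and 276 CPM (0.36 ± 0.07, adjusted p = 0.00212). The clones of the groups did not overlap in these 4 genes, as in 41 of the 48 tested members. The share over all genes was not computed for this comparison. Psmc1 rose least, from 187 and 211 CPM to 231 and 238 CPM (0.24 ± 0.07, adjusted p = 0.0184), a call lost without clone 5-2, 12-1 or 12-3. Psmc6 (chromosome 14, 45329824 to 45349071, plus strand) went the other way, from 242 and 248 CPM to 192 and 199 CPM. It fell by 0.32 ± 0.07 (adjusted p = 0.00402), less than its chromosome, whose median was −0.61.

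The other base subunits, which bind ubiquitin and shuttle factors (Psmd1, Psmd2 and Psmd4), had log2 differences of 0.147 to 0.151, and none passed the threshold. Of the 8 lid subunits, 3 rose and 1 fell. Psmd14, the deubiquitinase of the lid, rose by 0.23 ± 0.07 (146 and 158 CPM to 176 and 181 CPM, adjusted p = 0.0303), Psmd12 by 0.19 ± 0.06 (adjusted p = 0.0303) and Psmd7, the partner of Psmd14, on chromosome 8, by 0.22 ± 0.07 (adjusted p = 0.0227). Each of these lost its call without clone 5-2, 12-1 or 12-3, and Psmd14 also in limma-voom fits to the single libraries. Psmd6 (chromosome 14, 14112185 to 14120904, minus strand) fell by 0.30 ± 0.08, from 150 and 176 CPM to 131 and 133 CPM (adjusted p = 0.0108), and lost its call without clone 5-5, 12-1 or 12-3.

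In the core, 1 of 7 α ring subunits and 2 of 4 structural β subunits rose, and the catalytic subunits split. Psma5 rose by 0.26 ± 0.07 (adjusted p = 0.0165), Psmb3 by 0.22 ± 0.07 (adjusted p = 0.0231) and Psmb4 by 0.18 ± 0.06 (adjusted p = 0.0338). Psmb5 (chromosome 14, 54614120 to 54617995, minus strand), the chymotrypsin-like subunit, was at 124 CPM in both WT_mock clones and at 80.7 and 80.6 CPM in the KO_mock clones. It fell by 0.62 ± 0.07 (adjusted p = 0.000202), close to the chromosome 14 median of −0.61. The other members on chromosome 14 (Psmc6, Psmd6, Psme1 and Psme2) lay above that median, between −0.323 and −0.138. Psmb6, the caspase-like subunit, rose from 283 and 291 CPM to 340 and 339 CPM (0.24 ± 0.06, adjusted p = 0.0134), a call lost without clone 5-2, 12-1 or 12-3. Psmb7, the trypsin-like subunit, was at 190 and 191 CPM and at 197 and 205 CPM (0.07 ± 0.05) and did not pass the threshold. The calls of Psma5, Psmb3 and Psmb4 were lost without clone 5-2 or 12-3, those of Psmb3 and Psmb4 also without 12-1 and that of Psmb3 also without 5-5. Of the bases of the Psmb5 exons, 12.5% also lie in Mir686 on the same strand, whose reads were counted for both.

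Psmb9 (chromosome 17, 34182099 to 34187330, minus strand), the immunoproteasome counterpart of Psmb6, was at 2.18 and 1.42 CPM in the WT_mock clones and at 0.432 and 0.411 CPM in the KO_mock clones. Its log2 difference was −2.09 ± 0.39 (adjusted p = 0.00252). The WT_mock libraries held 56, 53, 33 and 36 counts and the KO_mock libraries 7, 12, 12 and 7, so no library of either group overlapped the other. Per kb, Psmb9 made up 0.801% ± 0.252 (SD, n = 2 clones) of the summed level of Psmb9 and Psmb6 in WT_mock and 0.159% ± 0.00513 in KO_mock. Markers of primitive endoderm moved with it, summing to 9.69 and 10.2 CPM in WT_mock and 2.25 and 2.75 CPM in KO_mock, most of it Gata4. Of the 6, 5 were under 1 CPM in both groups and none was at 0. In KO_ERRg_wt these markers summed to 8.6 and 8.96 CPM, with Sox7 highest, while Psmb9 was at 0.43 and 0.395 CPM. Their part in the level of Psmb9 was not tested. Psmb10 (chromosome 8, 105935728 to 105938392, minus strand), the counterpart of Psmb7, was at 20.6 and 23.5 CPM in WT_mock and 29.9 and 27.5 CPM in KO_mock (0.38 ± 0.26, adjusted p = 0.264). Psmb8 (chromosome 17, 34198195 to 34201454, plus strand) had 5 counts in each group.

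Chaperones and activators changed singly. Psmd9 (chromosome 5, 123228190 to 123250125, plus strand), which guides assembly of the base, rose from 21.1 and 24.0 CPM to 30.5 and 30.6 CPM (0.44 ± 0.08, adjusted p = 0.00264). Psme3 (chromosome 11, 101316251 to 101323530, plus strand), a nuclear activator of the core, rose from 178 and 193 CPM to 243 and 240 CPM (0.38 ± 0.07, adjusted p = 0.00231). Of the chaperones that assemble the core, Psmg1 rose by 0.26 ± 0.07 (adjusted p = 0.0191) and Psmg4 fell by 0.43 ± 0.14 (adjusted p = 0.0287), and both calls were lost without clone 5-2, 12-1 or 12-3, that of Psmg4 also without 5-5. Psma8, an α subunit of germ cells, was at 30.8 and 35.7 CPM in WT_mock and at 43.0 and 49.1 CPM in KO_mock (0.47 ± 0.15, adjusted p = 0.0337), again lost without clone 5-2, 12-1 or 12-3. The interferon-inducible activator subunits on chromosome 14 did not pass the threshold. Psme1 was at 116 CPM in both WT_mock clones and at 101 and 97.5 CPM in KO_mock (−0.23 ± 0.19), and Psme2 was at 53.7 and 54.8 CPM and at 48.6 and 49.9 CPM (−0.14 ± 0.26). Psme4, a further activator, and Psmf1, an inhibitor of the core, differed by 0.13 ± 0.07 and 0.02 ± 0.08, and Psmc3ip by 0.01 ± 0.08.

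Lists of related genes, chosen with earlier results of these data known, were counted beside the members. Of 11 other proteasome factors, 5 rose and 2 fell in the knockout. Those with the smallest p were Zfand2a, a stress-induced partner of the proteasome (0.55 ± 0.10, adjusted p = 0.00241), AI314180 (−0.45 ± 0.11, adjusted p = 0.00951), Adrm1, a ubiquitin receptor of the base (0.30 ± 0.09, adjusted p = 0.0256), and Usp14, a deubiquitinase (−0.23 ± 0.07, adjusted p = 0.0264). Of 9 regulators of proteasome genes, 2 rose and 2 fell. Nfyc, a subunit of the CCAAT-binding factor, rose by 0.67 ± 0.11 (adjusted p = 0.00126), and Nfe2l2 fell by 0.23 ± 0.07 (adjusted p = 0.022). Ddi2, the protease that activates the Nfe2l1 product, rose by 0.28 ± 0.06 (adjusted p = 0.00583), and Ngly1, its deglycosylase, fell by 1.02 ± 0.16 (adjusted p = 0.00114), on chromosome 14. Nfe2l1 itself was at 254 ± 26.2 CPM in WT_mock and 209 ± 8.24 CPM in KO_mock (SD, n = 2 clones) and did not pass the threshold. Of 7 tested antigen processing genes and regulators, Irf1 rose (0.83 ± 0.14, adjusted p = 0.0014), Erap1 rose (0.91 ± 0.29, adjusted p = 0.0294) and the peptide transporter gene Tap2 fell (log2 difference −1.92 ± 0.53, adjusted p = 0.0155). Of 14 ubiquitin genes and shuttle factors, 4 rose and 2 fell. Ufd1l and Nploc4, which work with the unfoldase Vcp, rose by 0.38 ± 0.10 and 0.27 ± 0.06.

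Return of wild-type ERR beta was compared with KO_mock and with WT_mock, comparisons that share the KO_ERRb_wt clones. Against KO_mock, 0 of 48 members were higher (1.07% of all genes were) and 0 were lower (0.781%), in edgeR and in DESeq2. An unadjusted p below 0.05 was reached by 5 members (10.4%, against 19.7% of all tested genes). These were Psmc3 (−0.19 ± 0.07), Psmd9 (−0.18 ± 0.08), Psmc2 (−0.17 ± 0.07), Psmb6 (−0.16 ± 0.06) and Psmb9 (0.97 ± 0.41, adjusted p = 0.224). The 6 base ATPases lay between −0.19 and −0.08. Both KO_ERRb_wt clones lay below both KO_mock clones in 28 of 48 members (58.3%, against 28.6% of all tested genes) and above them in 4 (8.33%, against 29.2%). None of the lists of related genes held a called gene here.

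Psmb9 stood at 1.04 and 0.611 CPM in the KO_ERRb_wt clones, above both KO_mock clones and below both WT_mock clones. Its libraries held 23, 29, 13 and 16 counts. Against WT_mock, 1 of 48 members was higher (4.49% of all genes) and 3 were lower (5.79%). Psmb5, at 81.1 and 73.4 CPM, fell by 0.68 ± 0.07 (adjusted p = 0.000379), and Psmc6, at 172 and 200 CPM, fell by 0.40 ± 0.07 (adjusted p = 0.00528). Both lie on chromosome 14, whose median against WT_mock was −0.56. Psmd6, at 123 and 137 CPM, fell by 0.33 ± 0.08 (adjusted p = 0.0246, lost without clone 5-5, 8-3 or 8-4), also on chromosome 14. The ATPase Psmc4, at 264 and 263 CPM, rose by 0.35 ± 0.08 (adjusted p = 0.0174, lost without clone 5-2 or 8-4). Psmb9 missed the threshold (−1.12 ± 0.36, adjusted p = 0.0716). The 4 calls became 8 with DESeq2 and 2 without clone 8-4, and with DESeq2's size factors in edgeR the split moved from 1 higher and 3 lower to 2 and 3.

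The mutant and ERR gamma groups were compared next, each with KO_mock, so all 4 comparisons share the KO_mock clones. Common to their values were low Psmb10 and Psmd7, both on chromosome 8, and higher Psmb1, while Psmg4 and Psmb5 rose in some. KO_ERRb_DBDm3 had 3 members higher (6.25%, against 12.4% of all genes) and 3 lower (6.25%, against 13.3%). KO_ERRb_DBDm6 had 12 higher (25.0%, against 20.8%) and 4 lower (8.33%, against 20.6%). KO_ERRb_AF2M6 had 15 higher (31.2%, against 18.1%) and 5 lower (10.4%, against 19.1%). KO_ERRg_wt had 3 higher (6.25%, against 20%) and 5 lower (10.4%, against 18.3%). The members' median log2 differences were −0.02, 0.07, 0.11 and −0.05 in that order, beside medians over all genes of 0.010, 0.0019, 0.0067 and 0.0035. Off chromosomes 6, 8 and 14, the medians of the 41 tested members were −0.0221, 0.0664, 0.0981 and −0.0515. Those of all tested genes off these chromosomes were 0.0423, 0.0463, 0.0472 and 0.0389.

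These counts depended on single clones. For KO_ERRb_DBDm3 the 6 calls became 2 without clone 12-1 or 12-3. For KO_ERRb_DBDm6 the 16 became 5, 7, 7 and 8 without clones 12-1, 12-3, 10-24 and 10-26, and with TMM computed outside chromosomes 6, 8 and 14 the split of 12 higher and 4 lower became 6 and 7. That scaling ended the calls of Psma2, Psma7, Psmb4, Psmc2, Psmc3 and Psmg1 there, of Psmd5 in KO_ERRb_DBDm3, and of Psma7, Psmd6, Psmd12, Psmd14 and Psmg1 in KO_ERRb_AF2M6. Without the filter on low counts, the calls of Psma2, Psmc2 and Psmc3 in KO_ERRb_DBDm6, Psmd5 in KO_ERRb_DBDm3, Psmd12 and Psmg1 in KO_ERRb_AF2M6 and Psme3 and Psmg2 in KO_ERRg_wt were lost. In limma-voom on the libraries, those of Psma2 and Psmc3 in KO_ERRb_DBDm6 and Psmd12 and Psmd14 in KO_ERRb_AF2M6 were lost. For KO_ERRb_AF2M6 the 20 became 11, 10 and 12 without clones 12-1, 12-3 and 32-31. For KO_ERRg_wt the 8 became 4, 5, 4 and 5 without clones 12-1, 12-3, 14-1-10 and 14-11.

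Psmb10 fell in each of these comparisons. It was at 29.9 and 27.5 CPM in KO_mock and at 26.4 and 25.0 CPM in KO_ERRb_wt. In the mutants it was at 14.1 and 6.39 CPM (KO_ERRb_DBDm3), 9.79 and 10.4 CPM (KO_ERRb_DBDm6) and 9.79 and 10.7 CPM (KO_ERRb_AF2M6), and in KO_ERRg_wt at 13.9 and 11.4 CPM. Every clone of these 4 groups lay below every clone of WT_mock, KO_mock and KO_ERRb_wt. Against KO_mock the log2 differences were −1.48 ± 0.26 (adjusted p = 0.0027), −1.50 ± 0.26 (0.00114), −1.49 ± 0.26 (0.00137) and −1.18 ± 0.27 (0.00531, lost without clone 14-11). The chromosome 8 medians were −0.53, −0.49, −0.55 and −0.53. Per kb, Psmb10 made up 9.84% ± 0.792 (SD, n = 2 clones) of the summed level of Psmb10 and Psmb7 in KO_mock and 3.77%, 3.40%, 3.44% and 4.72% in the 4 groups. The 5 leukocyte markers summed to 5.55 to 5.82 CPM in KO_mock and to 2.14 to 4.27 CPM in the 4 groups, most of it Itgam, with Lyz2 at 0 in every group and 4 of 5 markers under 1 CPM. The sum of the 5 trophoblast markers moved the other way, from 40.5 and 48.8 CPM in KO_mock. It was 109 and 184 CPM in KO_ERRb_DBDm3, 118 and 122 CPM in KO_ERRb_DBDm6, 118 and 177 CPM in KO_ERRb_AF2M6 and 72.9 and 86.8 CPM in KO_ERRg_wt. This rise was that of Tfap2c, at 32.5 CPM in KO_mock and 142, 116, 140 and 74.1 CPM in the 4 groups. Cdx2 (4.51 CPM in KO_mock) and Eomes (7.47 CPM) were lower in all 4. Elf5 was at 0 in KO_mock, KO_ERRb_DBDm6 and KO_ERRg_wt. The part of either list in the levels of Psmb10, Psmd7, Psmb1 and the other members called in these groups was not tested.

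**Figure D4:**
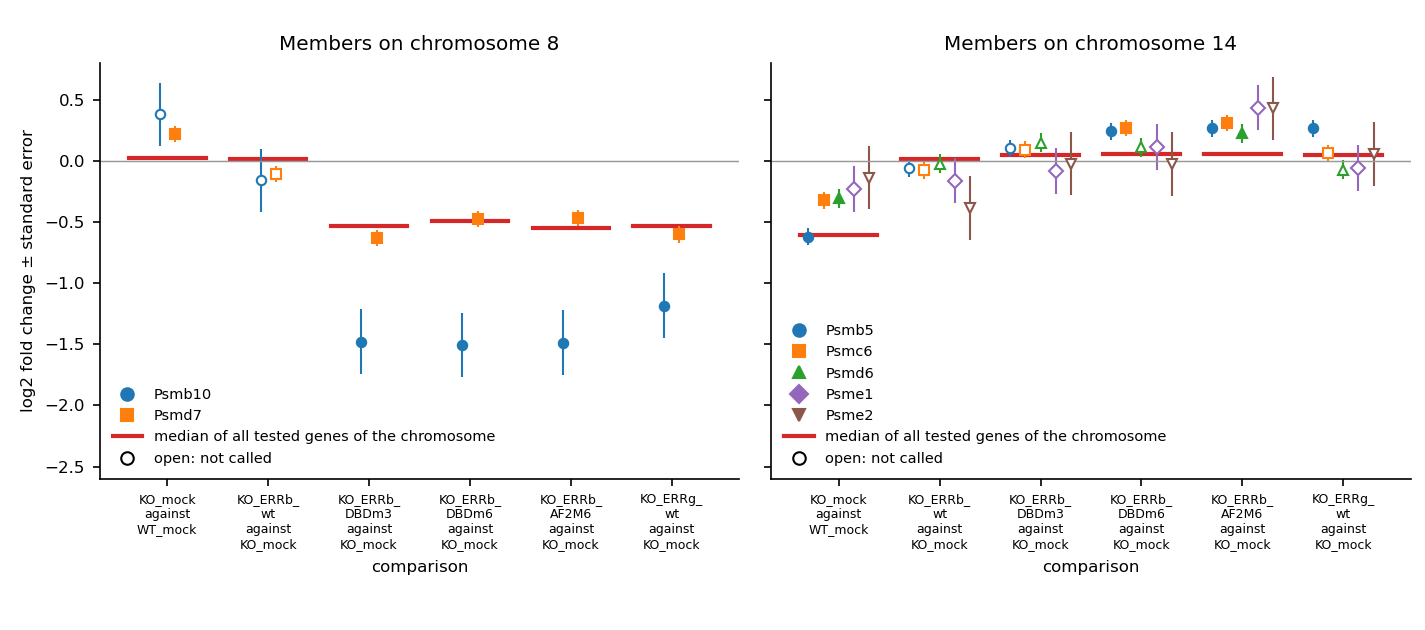
Log2 fold change with standard error (y axis) of the members on chromosome 8 (left) and chromosome 14 (right) in 6 comparisons (x axis), filled where called, beside the median of all tested genes of the chromosome (red bars). Psmd7 lies near the chromosome 8 median in the last 4 comparisons and Psmb10 below it. In KO_mock against WT_mock, Psmb5 lies at the chromosome 14 median and the other members of that chromosome above it.

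Psmd7 (chromosome 8, 107580380 to 107588482, minus strand), the lid subunit that pairs with the deubiquitinase Psmd14, was at 162 and 155 CPM in KO_mock and at 131 and 141 CPM in WT_mock. It was at 106 and 98.7 CPM in KO_ERRb_DBDm3, 110 and 118 CPM in KO_ERRb_DBDm6, 111 and 118 CPM in KO_ERRb_AF2M6 and 104 and 105 CPM in KO_ERRg_wt. Every one of these clones was below every clone of the other 3 groups. The log2 differences from KO_mock were −0.63 ± 0.07 (adjusted p = 0.000146), −0.47 ± 0.07 (0.000262), −0.47 ± 0.07 (0.000327) and −0.60 ± 0.07 (7.38e-05), and the chromosome 8 medians were −0.53, −0.49, −0.55 and −0.53. Of all members, Psmd7 also had the highest F statistic in the test of any difference among the 7 groups (28.7), and it ranked 936 among all tested genes. That test called 31 of 48 members (64.6%), against 69.6% of all tested genes.

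In the core, structural β subunits were called in all 4 comparisons with KO_mock. Of the catalytic subunits only Psmb5 was called, in 3 of them, and α subunits were called in 2. Psmb1, a structural subunit, was at 172 and 180 CPM in KO_mock, 195 and 215 CPM in KO_ERRb_DBDm3, 219 and 230 CPM in KO_ERRb_DBDm6, 227 and 223 CPM in KO_ERRb_AF2M6 and 210 and 202 CPM in KO_ERRg_wt. It rose in each, by 0.22 ± 0.06 (adjusted p = 0.0223), 0.35 ± 0.06 (0.00101), 0.36 ± 0.06 (0.00105) and 0.23 ± 0.06 (0.0132). The first was lost without clone 12-1, 12-3 or 9-8 and the last without 12-1 or 14-1-10. Psmb4, another structural subunit, rose by 0.21, 0.20 and 0.32 in the 3 mutants and differed by 0.06 ± 0.06 in KO_ERRg_wt, and its calls in KO_ERRb_DBDm3 and KO_ERRb_DBDm6 were lost without clone 12-1 or 12-3. Psmb5 was at 89.2 and 84.1, 93.4 and 97.6, 93.1 and 100.7, and 100.1 and 93.7 CPM in the 4 groups. These levels lay between those of KO_mock (80.7 and 80.6 CPM) and WT_mock (124 CPM in both clones). Its differences from KO_mock were 0.10 ± 0.07 in KO_ERRb_DBDm3, not called, and 0.24 ± 0.07 (adjusted p = 0.0156), 0.26 ± 0.07 (0.0115) and 0.27 ± 0.07 (0.0117) in the other 3, each call lost without clone 12-1 or 12-3 and without 10-26, 32-31 and 14-1-10, respectively. Psmb6 and Psmb7 had no call against KO_mock in any of the 4, with log2 differences of −0.11 to 0.14. Of the α ring, Psma2, Psma6 and Psma7 rose in KO_ERRb_DBDm6 (0.17 to 0.27) and in KO_ERRb_AF2M6 (0.22 to 0.34), and no α subunit was called in the other 2 groups. The 3 calls in KO_ERRb_DBDm6 were lost without clone 12-1 or 10-24, and in KO_ERRb_AF2M6 that of Psma7 was lost without any 1 of the 4 clones.

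In the regulatory particle, the ATPases Psmc2, Psmc3 and Psmc6 rose over KO_mock in KO_ERRb_DBDm6 (0.18 to 0.27) and in KO_ERRb_AF2M6 (0.28 to 0.35). Psmc2 was at 148 and 135 CPM in the first and 152 and 162 CPM in the second, against 122 and 125 CPM in KO_mock. Psmc6, on chromosome 14, was at 236 and 237 CPM and at 241 and 243 CPM, against 192 and 199 CPM, and the WT_mock clones were at 242 and 248 CPM. Psmc1, Psmc4 and Psmc5 were not called in any of the 4 comparisons, and no ATPase was called in KO_ERRb_DBDm3 or KO_ERRg_wt. In KO_ERRb_DBDm6 all 3 ATPase calls were lost without clone 12-1, and in KO_ERRb_AF2M6 that of Psmc3 was lost without 12-3 or 32-31. Psmd11, the lid subunit tied to proteasome activity in human ESCs, was at 130 and 129 CPM in KO_mock, 115 and 89.7 CPM in KO_ERRb_DBDm3, 99.2 and 105 CPM in KO_ERRb_DBDm6 and 97.6 and 112 CPM in KO_ERRb_AF2M6. It fell by 0.34 ± 0.10 (adjusted p = 0.0303), 0.34 ± 0.10 (0.0188) and 0.30 ± 0.10 (0.0358). These calls were lost without clone 12-1 or 12-3, and without 9-8, without 10-24 or 10-26, and without 32-25, respectively. In KO_ERRg_wt it was at 122 and 121 CPM (−0.09 ± 0.10). Psmd6 rose in KO_ERRb_AF2M6 by 0.22 ± 0.08 (adjusted p = 0.0413, lost without any 1 of the 4 clones) and differed by −0.07 to 0.15 in the others.

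**Figure D5:**
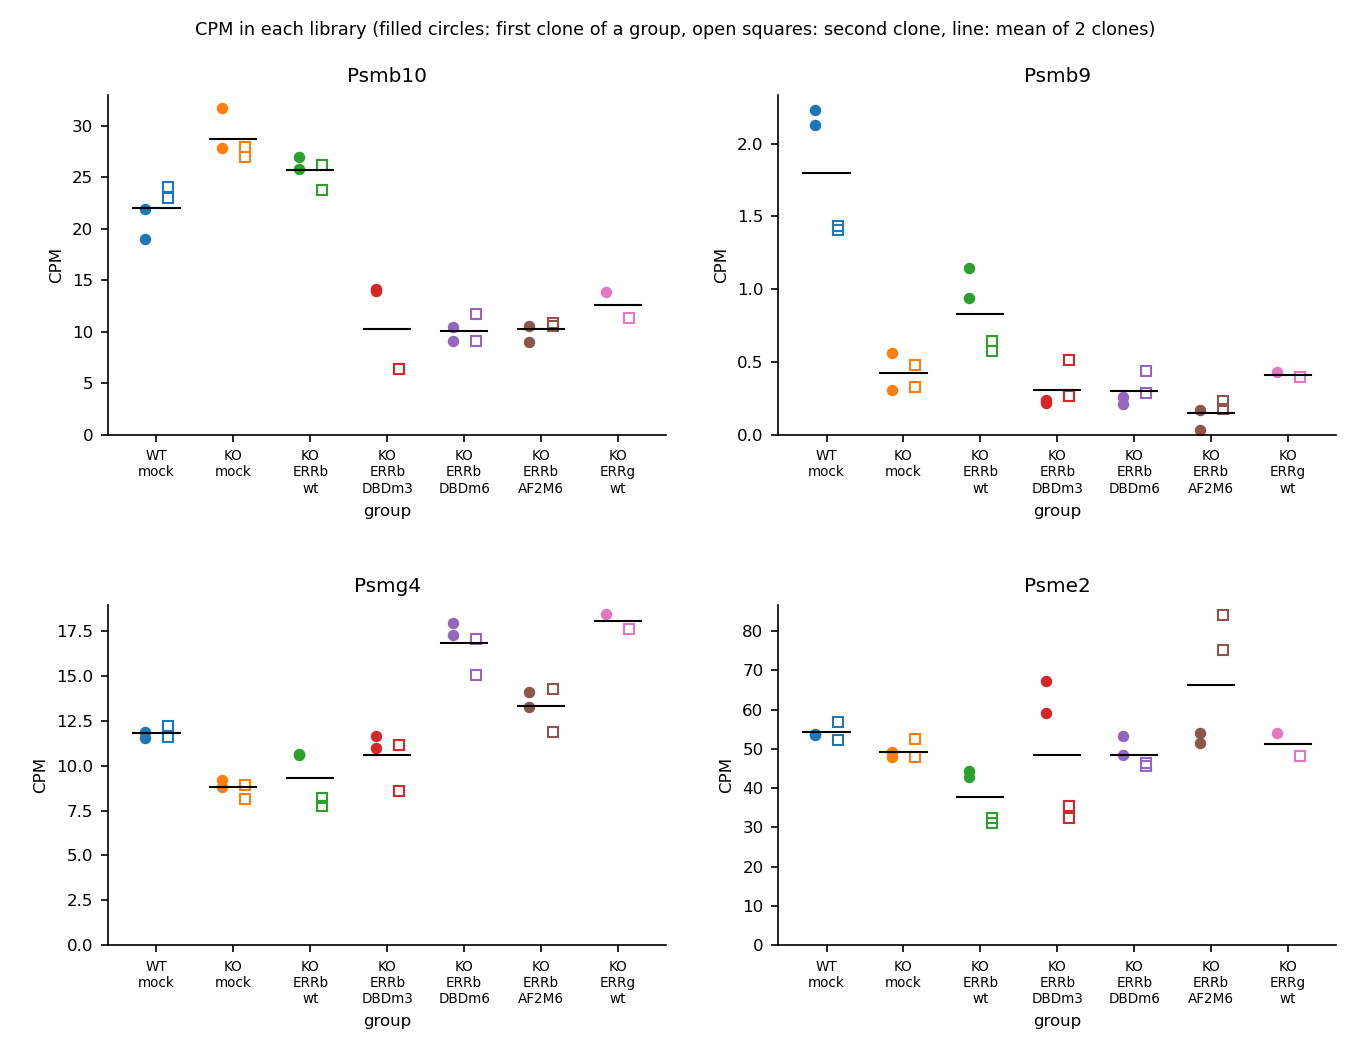
CPM of Psmb10, Psmb9, Psmg4 and Psme2 (y axes, from 0) in every library of the 7 groups (x axis), with filled circles for the first clone of a group, open squares for the other and a line at the mean of the 2 clones. Psmb10 separates the last 4 groups from the first 3, Psmb9 is highest in WT_mock, Psmg4 is highest in KO_ERRb_DBDm6 and KO_ERRg_wt, and Psme2 differs more between the clones of 1 group than between most groups.

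Psmg4 (chromosome 13, 34162964 to 34178172, plus strand), a chaperone of α ring assembly, had the largest rise of any member. It was at 9.03 and 8.57 CPM in KO_mock, 11.3 and 9.85 CPM in KO_ERRb_DBDm3, 17.6 and 16 CPM in KO_ERRb_DBDm6, 13.6 and 13 CPM in KO_ERRb_AF2M6 and 18.5 and 17.7 CPM in KO_ERRg_wt. The WT_mock clones, at 11.7 and 12.0 CPM, lay below the last 3 groups. Its log2 differences from KO_mock were 0.27 ± 0.14 (not called), 0.94 ± 0.14 (adjusted p = 0.000349), 0.60 ± 0.14 (0.00531) and 1.04 ± 0.14 (0.000241), and these 3 calls were kept whichever clone was left out. Psmg1, a chaperone of the same step, rose in KO_ERRb_DBDm6 (0.23 ± 0.07) and KO_ERRb_AF2M6 (0.22 ± 0.07), and Psmg2 fell in KO_ERRg_wt by 0.20 ± 0.07. These calls of Psmg1 and Psmg2 were lost without clone 12-1 or 12-3, among others. The base chaperone Psmd5 rose in the 3 mutants (0.19 to 0.32) and differed by 0.02 ± 0.06 in KO_ERRg_wt, and its call in KO_ERRb_DBDm3 was lost without clone 12-1, 12-3 or 9-6 and in KO_ERRb_DBDm6 without 10-26. Psmd9, another base chaperone, fell in KO_ERRg_wt from 30.5 and 30.6 CPM to 21.7 CPM in both clones (log2 difference −0.49 ± 0.09, adjusted p = 0.00111), and the WT_mock clones were at 21.1 and 24.0 CPM.

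Psmb9 was at 0.228 and 0.387 CPM in KO_ERRb_DBDm3, 0.236 and 0.361 CPM in KO_ERRb_DBDm6, 0.0943 and 0.206 CPM in KO_ERRb_AF2M6 and 0.430 and 0.395 CPM in KO_ERRg_wt. Those groups held 29, 29, 15 and 22 counts in all, so counting error alone is large. Only KO_ERRb_AF2M6 was called against KO_mock (−1.49 ± 0.50, adjusted p = 0.0376), and the call was lost without clone 12-1, 12-3 or 32-25 and with DESeq2. Psmb8 had 3, 0, 1 and 1 counts in these groups, and the 0 counts of KO_ERRb_DBDm6 allow up to 0.0303 CPM. Psme1 and its partner Psme2 had no call against KO_mock. Psme2 was at 63.1 and 33.8 CPM in the KO_ERRb_DBDm3 clones and at 52.8 and 79.9 CPM in the KO_ERRb_AF2M6 clones, and Psme1 at 113 and 73.5 CPM and at 112 and 156 CPM. In both genes the KO_ERRb_DBDm3 clones lay on either side of the KO_mock clones, and the KO_ERRb_AF2M6 clones lay above them. Psme2b, a paralog of Psme2 with 24.6% of its bases in 9930111J21Rik1 on the same strand, was at 1.62 to 4.17 CPM and was not called in any comparison. Reads that align to several places were not counted, so its level is uncertain.

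Against KO_ERRb_wt, the same 4 groups share the KO_ERRb_wt clones. KO_ERRb_DBDm3 had 7 members higher (14.6%, against 15.3% of all genes) and 3 lower (6.25%, against 16.8%). KO_ERRb_DBDm6 had 15 higher (31.2%, against 19.1%) and 4 lower (8.33%, against 20%). KO_ERRb_AF2M6 had 23 higher (47.9%, against 20.3%) and 4 lower (8.33%, against 22.8%). KO_ERRg_wt had 3 higher (6.25%, against 13.5%) and 4 lower (8.33%, against 11.9%). The members' medians were 0.08, 0.11, 0.19 and 0.02, beside −0.0066, −0.015, −0.015 and −0.0041 over all genes. Off chromosomes 6, 8 and 14, the medians of the 41 tested members were 0.0572, 0.0776, 0.185 and 0.0231. Those of all tested genes off these chromosomes were 0.0262, 0.0212, 0.0301 and 0.0253. The 10 calls of KO_ERRb_DBDm3 became 4 without clone 8-3, the 19 of KO_ERRb_DBDm6 became 11 without 10-24, the 27 of KO_ERRb_AF2M6 became 17 without 32-31, and the 7 of KO_ERRg_wt became 4, 4, 2 and 4 without 8-3, 8-4, 14-1-10 and 14-11.

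KO_ERRb_AF2M6, the mutant deficient in coactivator binding, had the most calls in this family. All 3 catalytic β subunits rose, Psmb5 by 0.33 ± 0.07 (adjusted p = 0.00315), Psmb6 by 0.29 ± 0.06 (0.00381) and Psmb7 by 0.20 ± 0.05 (0.0137, lost without clone 8-3 or 32-31). Of the 13 core genes outside chromosomes 6, 8 and 14, 9 rose, and of the 14 regulatory genes 6 rose. Psmc2, at 106 and 114 CPM in KO_ERRb_wt and 152 and 162 CPM in KO_ERRb_AF2M6, rose by 0.51 ± 0.07 (adjusted p = 0.000228). Psmc3, at 241 and 251 CPM and at 325 and 353 CPM, rose by 0.46 ± 0.07 (adjusted p = 0.000258). In both, the clones of the groups did not overlap, as in 45 of the 48 tested members. Psme2 rose by 0.81 ± 0.26 (adjusted p = 0.0263) and Psme1 by 0.60 ± 0.19 (adjusted p = 0.0242), but both calls were lost without clone 8-4 or 32-31 and without the filter on low counts. These clones held the lowest and the highest Psme2 of the 14, at 31.9 and 79.9 CPM.

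The immunoproteasome subunits had the largest falls against KO_ERRb_wt. Psmb9 fell by 1.44 ± 0.42 in KO_ERRb_DBDm3 (adjusted p = 0.0235, lost without clone 8-3 or 9-6), 1.46 ± 0.42 in KO_ERRb_DBDm6 (0.0179, lost without 8-3 or 10-24) and 2.46 ± 0.47 in KO_ERRb_AF2M6 (0.0016), and differed by −1.0 ± 0.44 in KO_ERRg_wt (0.124). For Psmb10 the differences in that order were −1.32, −1.34, −1.33 and −1.02 (standard errors 0.26, 0.26, 0.26 and 0.27), the last lost without any 1 of its 4 clones. The chromosome 8 medians here were −0.55, −0.53, −0.57 and −0.55. Psmd7 had differences of −0.52, −0.37, −0.36 and −0.49 (standard error 0.07 each), all called. Psmg4 rose by 0.85 ± 0.14 in KO_ERRb_DBDm6 (adjusted p = 0.000574), 0.52 ± 0.14 in KO_ERRb_AF2M6 (0.00977, lost without clone 8-4) and 0.96 ± 0.14 in KO_ERRg_wt (0.000639), and differed by 0.19 ± 0.14 in KO_ERRb_DBDm3.

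Related genes were counted in the comparisons with KO_mock. Of the 11 other proteasome factors, 2 rose and 1 fell in KO_ERRb_DBDm3, 4 and 3 in KO_ERRb_DBDm6, 3 and 1 in KO_ERRb_AF2M6 and 2 and 2 in KO_ERRg_wt. Shfm1, a small lid subunit outside the name rule, lies on chromosome 6. It was at 280 ± 4.69 CPM in KO_mock and at 146 ± 46.1, 114 ± 4.04, 119 ± 2.17 and 168 ± 2.54 CPM (SD, n = 2 clones) in the 4 groups, and fell in all 4 (log2 differences −0.94, −1.30, −1.24 and −0.74), beside chromosome 6 medians of −0.63, −0.93, −0.96 and −0.38. Akirin2, which carries proteasomes into the nucleus, rose by 0.30, 0.43, 0.38 and 0.30. Of the 9 regulators, 2 rose and 1 fell, 2 and 3, 2 and 1, and 4 and 2. Nfe2l2, which drives antioxidant response genes, rose by 0.48, 0.65, 0.50 and 0.64 (standard error 0.07 each) and Ddi2 fell (−0.37, −0.57, −0.43 and −0.42). Nfe2l1 was called in KO_ERRg_wt, where it rose to 366 ± 1.17 CPM (0.81 ± 0.11, adjusted p = 0.000234). Of 14 ubiquitin genes and shuttle factors, 1 rose and 3 fell, 2 and 3, 2 and 3, and 0 and 4. Of 7 antigen processing genes, 0 and 0, 1 and 1, 1 and 1, and 0 and 0 did.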

How the data were processed

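Total RNA of 14 mouse ESC clones was sequenced as 26 stranded, single-end libraries. The authors deposited raw counts per gene. The submitters' processing notes name STAR 2.7.8a as aligner and mm10 as build. Counting took exons, reverse strand, with featureCounts 2.0.1, per the file headers (2.0.10 in the notes), with reads in overlapping genes counted for each gene and reads that align to several places not counted.

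Here the libraries of a clone were added, and genes were filtered with edgeR's filterByExpr and scaled with TMM (factors 0.972 to 1.05). A robust quasi-likelihood fit with edgeR 4.0.16 (R 4.3.3, limma 3.58.1) gave 1 mean per group for 15238 genes, leaving 7 residual degrees of freedom. The biological coefficient of variation was 0.116. Every adjusted p is from edgeR's quasi-likelihood test with Benjamini-Hochberg adjustment over all tested genes in a comparison, and a gene was called at 0.05. The standard error is the log2 difference divided by the square root of F, so it follows the test. All 7 groups share 1 estimate of the spread. Clone totals ran from 25103562 to 54105869 counts, and intervals from counts of 0 cover counting error only. The test was checked on simulated data for KO_mock against WT_mock with 14988 genes. It called 58 of 83 genes changed by 1 on the log2 scale, 101 of 114 changed by 2, and 11 of 14791 unchanged. The simulated data held no change smaller than 1 and no shift of a whole chromosome. The check therefore does not cover the smaller differences of most members or such shifts.

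Members and lists were chosen with earlier results of these data known. Full values were given for members called in the knockout, members on chromosomes 6, 8 and 14, the catalytic and immunoproteasome subunits and, elsewhere, the 3 called members with the largest difference. Other members may be named, and up to 4 called genes of each related list with the smallest p. Nfe2l1 and Akirin2 were named for their roles. DESeq2 1.42.0, other scalings, no filter, limma-voom on libraries and leaving out each clone were the alternatives. Promoter windows are from RefSeq on GRCm38.p6. Figures were drawn with matplotlib 3.10.9 (Python 3.11.15, pandas 2.3.3).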

Additional observations from a re-analysis of the deposited data

Results flagged for a closer look

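Library 2 of clone 32-25 (KO_ERRb_AF2M6) stood apart from the other 3 libraries of its group in 2 classes. Its base ATPases summed to 888 CPM per kb, against 995 to 1010 in the others, and its α ring to 1180 CPM per kb, against 1260 to 1270. In both, the gap to the nearest library was a larger share of the range than Dixon's 95% critical value for 4 samples allows. Among the 78 groups of libraries looked at, chance flags about 1 in 20. Without clone 32-25, 17 members in place of 20 were called in KO_ERRb_AF2M6 against KO_mock and 26 in place of 27 against KO_ERRb_wt.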

How the results depend on the processing

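The number of members called in KO_ERRb_wt against WT_mock was 4, and became 8 with DESeq2, 11 in a limma-voom fit to the libraries with the clone as a random effect, and 9 in the same fit with a replicate block. The cause was not tested. In the other comparisons the alternatives that kept all clones moved the count by less than 1.5 times. Leaving out each clone in turn gave 9 to 19 calls for KO_mock against WT_mock, 0 for KO_ERRb_wt against KO_mock and 2 to 5 for KO_ERRb_wt against WT_mock. Against KO_mock it gave 2 to 6 calls for KO_ERRb_DBDm3, 5 to 8 for KO_ERRb_DBDm6, 10 to 17 for KO_ERRb_AF2M6 and 4 to 5 for KO_ERRg_wt. Against KO_ERRb_wt it gave 4 to 12, 11 to 19, 17 to 26 and 2 to 4 in the same order, and for any difference among the 7 groups 27 to 37. A group then rests on 1 clone, assumed to vary like the others. Of 69 log2 differences, each of 1 member in 1 comparison, none changed sign under the alternatives run, 588 values stayed on their side of the threshold and 94 calls were lost.

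Library numbers 1 and 2 recur in every group but KO_ERRg_wt. Over 66 pairs of clones, the correlation of their differences between libraries ran from −0.121 to 0.352, with a median of 0.00345 and 7 pairs over 0.1. The numbers thus did not pair the libraries in the same way across all clones. In the limma-voom fits, the consensus correlation between the libraries of a clone was 0.475 with the replicate block and 0.415 without it. Whether the numbers paired the libraries of some clones was not tested. With the replicate block, 21 members were called in KO_mock against WT_mock, and no paired fit was made for KO_ERRg_wt, which has 1 library per clone. With 2 clones per group, differences the size of those of Psmd1, Psmd2 and Psmd4 in the knockout (0.147 to 0.151) did not pass the threshold, and Psmb8 and Psmb9 were limited by their counts.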
